A study of Homo sapiens with 6 samples.

Results

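The interferon-stimulated genes examined here are a fixed list of 37 human genes that cells switch on when they sense virus or receive interferon, and 36 of them could be read among the 18417 genes measured. They were chosen by name, with earlier results of these data known. RIGI is the current symbol of the gene once called DDX58. Each of the 36 was read by 1 probe, a set of short oligonucleotides that stands for 1 transcript. STAT2 was not analysed here. The cells were H441, an established human lung adenocarcinoma line. In 3 cultures they had received a pool of siRNA against ETS2, an ETS family transcription factor downstream of RAS and ERK signalling, and in 3 cultures a scrambled control siRNA. All cultures were transfected with the same lipid reagent and harvested 48 h later, and the labels count every transfection as a separate biological replicate. The design therefore rests on 1 cell line, 1 siRNA pool and 1 control, and since the control cells were transfected too, untransfected cells enter no comparison here.

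Interferons of types I and III bind receptors that activate the kinases JAK1 and TYK2. The signal leads to a complex containing IRF9 that binds the interferon-stimulated response element, a repeated GAAA sequence in the promoters of many of the genes listed here. Their products detect viral RNA, degrade or sequester it, block entry and release of virus, or tune the signal itself, and airway epithelium is a tissue in which this programme is a first line of defence.

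Values are levels on the log2 scale after RMA, a procedure that corrects background, normalises the arrays and summarises probes, and every difference subtracts the control mean from that of ETS2 siRNA cells. A gene was called changed at a Benjamini-Hochberg adjusted p under 0.05 over all 18417 genes, by limma's moderated test on the 6 arrays. ETS2 itself read 8.87, 8.70 and 8.78 after ETS2 siRNA, against 9.79, 9.91 and 9.79 in control cells, a difference of -1.05 (SE 0.0565, adjusted p = 0.000254). Of the 12 measured markers of lung epithelium, 11 lay above a background floor of 6.67, the level under which 95% of 341 olfactory receptor genes fell. The mean level of the 12 ran from 11.47 to 11.50 over the arrays of ETS2 siRNA cells and from 11.52 to 11.56 over those of control cells. SFTPB (-0.36) and SLC34A2 (-0.29) fell, which is 16.7% of the 12, beside 2.63% of all genes called lower. Over the 12 markers, 6 differences were positive and 6 negative. SLC34A2 lost its call without control replicate 3 or ETS2 siRNA replicate 2 or 3 (adjusted p from 0.0524 to 0.0617). Of 8 leukocyte markers, 3 lay above the floor, CD14, CD68 and ITGAM, while PTPRC, CD3E, CLEC4C, LYZ and IL3RA did not, and the mean of the 8 ran from 6.38 to 6.46 after ETS2 siRNA and from 6.38 to 6.43 in control cells.

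Of the 36 interferon-stimulated genes, 4 rose after ETS2 siRNA (SAMD9, IFIH1, DDX60 and BST2) and 1 fell (IFITM1), while 31 did not pass the test. The 4 that rose are 11.1% of the members, beside 2.28% of all genes called higher. The 1 that fell is 2.78%, beside 2.63% of all genes called lower, which is near the background share. Over both directions the calls were 13.9% of the members beside 4.91% of all genes. Because the list was chosen with earlier results of these data known, these shares are not independent evidence that members changed more often. The rises were small, between 1.13-fold for BST2 and 1.21-fold for SAMD9, and IFITM1 stood at 80.9% of its control level. The members did not move as a block. Their median difference was 0.00 on the log2 scale, equal to that of all genes at this precision, with 18 members above 0 and 18 below. Among the 28 members above the floor in at least 1 group, 16 were above 0 and 12 below. Their median was 0.025, beside 0.0033 for all genes above the floor. RNA from whole cultures was measured, so a change in every cell and a change in the share of cells that carry a transcript cannot be told apart.

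**Figure D1:**
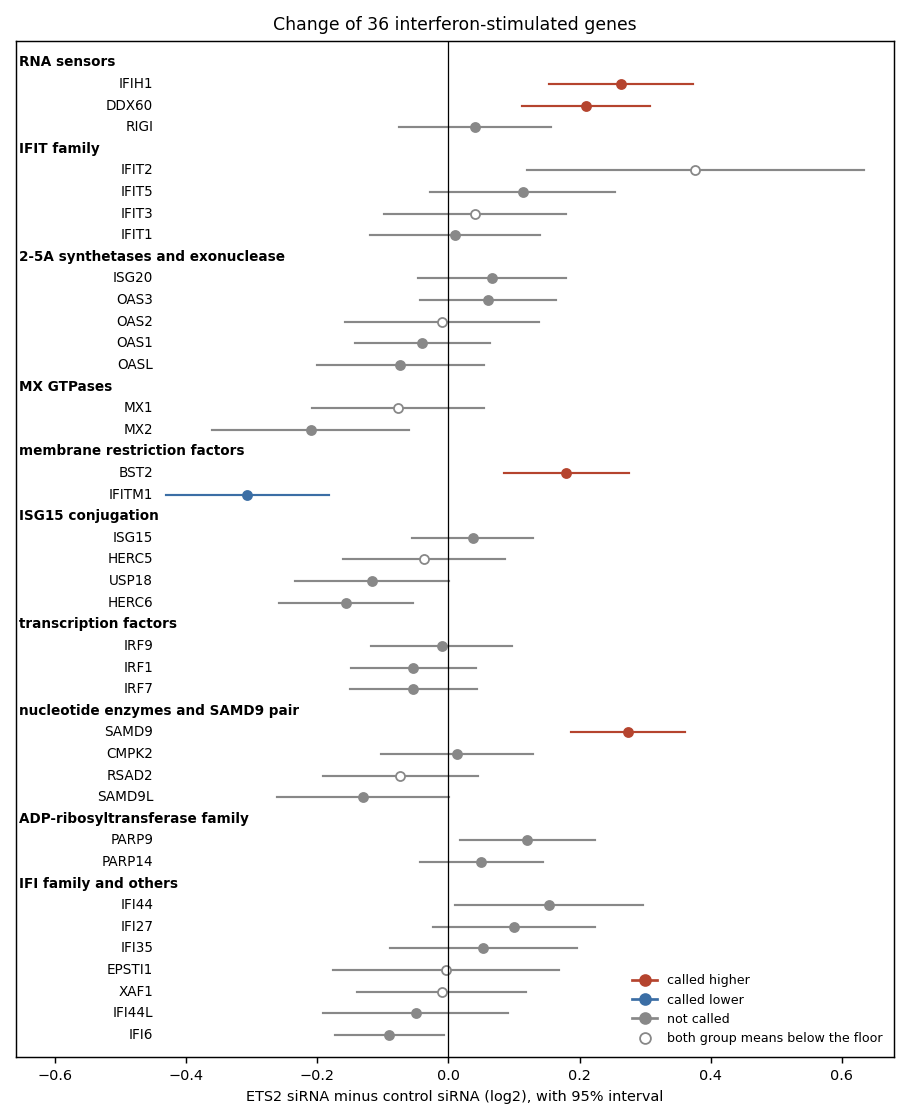
Log2 difference of each of the 36 members between ETS2 siRNA and control cells (x axis, positive where ETS2 siRNA was higher), grouped by role, with the point for the fitted difference and the line for its 95% interval (n = 3 arrays each). Red marks the 4 members called higher, blue the 1 called lower and grey the 31 not called, and open points are the 8 members with both group means below the floor.

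Calls were lost when single arrays were left out, while the differences stayed close to those reported. With 1 array left out, between 0 and 4 members were called: 4 without control replicate 2, 2 without control replicate 3, 1 without control replicate 1 or without ETS2 siRNA replicate 1 or 2, and 0 by limma without ETS2 siRNA replicate 3, where 7 members (19.4%) had an unadjusted p under 0.05, beside 14.7% of all genes. With all 6 arrays that level was passed by 11 members (30.6%) and by 18.5% of all genes. The count over all genes fell in the same fits, to 213 (1.16%) without ETS2 siRNA replicate 3. The 5 called members kept their direction in every such fit. Their differences ran from 0.26 to 0.29 for SAMD9, 0.22 to 0.30 for IFIH1 and 0.19 to 0.24 for DDX60. They ran from 0.16 to 0.20 for BST2 and from -0.36 to -0.26 for IFITM1. When all 33297 probes were tested on their own, SAMD9 kept its call and IFIH1, DDX60, BST2 and IFITM1 did not (adjusted p from 0.0699 to 0.117).

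The promoters of the 5 changed members are shown first, together with that of SAMD9L, the uncalled chromosomal neighbour of SAMD9. Each of the 5 holds the core of the interferon-stimulated response element, as do 16 members that were not called. Each run gives the 250 bases before the RefSeq start of the gene, 5′ to 3′ on the strand of the gene, in build GRCh38.p14. Capitals mark matches, on either strand, to the core of the interferon-stimulated response element, written here as GAAA and GAAA parted by any 2 bases. The last 6 capitals of IFITM1 belong to a match that crosses the start, and stretches longer than 10 capitals hold overlapping matches.
SAMD9 (chr7:93117980-93118229, minus strand): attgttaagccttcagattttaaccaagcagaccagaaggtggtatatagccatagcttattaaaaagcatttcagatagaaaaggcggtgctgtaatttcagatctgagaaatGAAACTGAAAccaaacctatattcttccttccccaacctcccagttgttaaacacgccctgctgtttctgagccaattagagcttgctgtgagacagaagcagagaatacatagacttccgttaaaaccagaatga
SAMD9L (chr7:93148386-93148635, minus strand): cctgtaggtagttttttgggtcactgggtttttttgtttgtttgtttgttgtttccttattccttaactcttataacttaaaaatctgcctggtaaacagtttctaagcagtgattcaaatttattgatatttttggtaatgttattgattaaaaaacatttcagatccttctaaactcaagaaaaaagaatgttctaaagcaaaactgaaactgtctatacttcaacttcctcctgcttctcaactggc
IFIH1 (chr2:162318685-162318934, minus strand): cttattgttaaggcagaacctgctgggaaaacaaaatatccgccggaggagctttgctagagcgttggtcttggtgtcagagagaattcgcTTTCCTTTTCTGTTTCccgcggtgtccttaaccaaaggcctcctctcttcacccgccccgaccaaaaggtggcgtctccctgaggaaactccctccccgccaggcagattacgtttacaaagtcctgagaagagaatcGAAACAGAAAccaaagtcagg
DDX60 (chr4:168318753-168319002, minus strand): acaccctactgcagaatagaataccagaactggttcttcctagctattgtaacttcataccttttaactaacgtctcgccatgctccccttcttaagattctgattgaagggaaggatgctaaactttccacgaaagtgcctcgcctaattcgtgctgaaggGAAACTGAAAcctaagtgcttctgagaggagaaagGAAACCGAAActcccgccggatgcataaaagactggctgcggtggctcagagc
BST2 (chr19:17405631-17405880, minus strand): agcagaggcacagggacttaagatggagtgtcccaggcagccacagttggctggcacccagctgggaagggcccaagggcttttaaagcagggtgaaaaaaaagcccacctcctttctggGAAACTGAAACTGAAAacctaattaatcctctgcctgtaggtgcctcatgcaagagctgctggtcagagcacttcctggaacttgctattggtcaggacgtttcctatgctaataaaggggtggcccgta
IFITM1 (chr11:313790-314039, plus strand): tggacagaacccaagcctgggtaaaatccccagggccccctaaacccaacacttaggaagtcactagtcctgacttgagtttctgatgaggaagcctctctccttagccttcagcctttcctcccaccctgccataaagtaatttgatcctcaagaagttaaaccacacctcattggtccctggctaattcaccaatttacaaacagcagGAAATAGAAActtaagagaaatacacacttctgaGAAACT
IFIH1, DDX60 and BST2 hold more than 1 match before the start, SAMD9 holds 1, at -136 bases from it, and the printed stretch of SAMD9L holds none.

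Over all members, 30 had at least 1 promoter window in RefSeq's table, which runs from 250 bases before the start to 50 after it, and IFIT2, IRF7, MX2, OAS2, OASL and USP18 had none there. This core was found in 21 of the 30 members (70.0%), beside 587 of 14239 measured genes with a window (4.12%) and 3.57% of all 35116 windows. The 9 without it were CMPK2, HERC6, IFI35, IRF1, IRF9, OAS1, RIGI, SAMD9L and XAF1. The median difference was 0.05 among the 21 members with the motif and -0.01 among the 9 without. All 5 called members were among the 21, but so were 16 that were not called, among them IFIT1, IFIT3 and ISG15, which hold several matches each. Of the 587 measured genes with the motif, 22 were called higher (3.75%) and 17 lower (2.90%), beside 2.40% and 2.83% of the measured genes without it. These 587 include the 21 members, so the 5 called members are counted among the 22 and 17.

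TTCNNNGAA, the gamma-activated site of interferon gamma signalling, was found in 11 of the 30 members (36.7%), beside 9.20% of measured genes with a window. Among the called members it was present in BST2, DDX60 and IFITM1, and it overlapped the response element in BST2 and in IFITM1. CCGGAAG, a short form of the site bound by ETS factors, was found in 2 of the 30 members (6.67%), beside 16.8% of measured genes with a window. These were CMPK2 and RSAD2, adjacent genes whose windows overlap, and their matches fall on the same bases, so they are not separate sites. Neither gene was called (0.01 and -0.07), and RSAD2 lay below the floor in both groups. All 3 motifs were searched on both strands, and a match describes letters in a window, not binding.

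**Figure D2:**
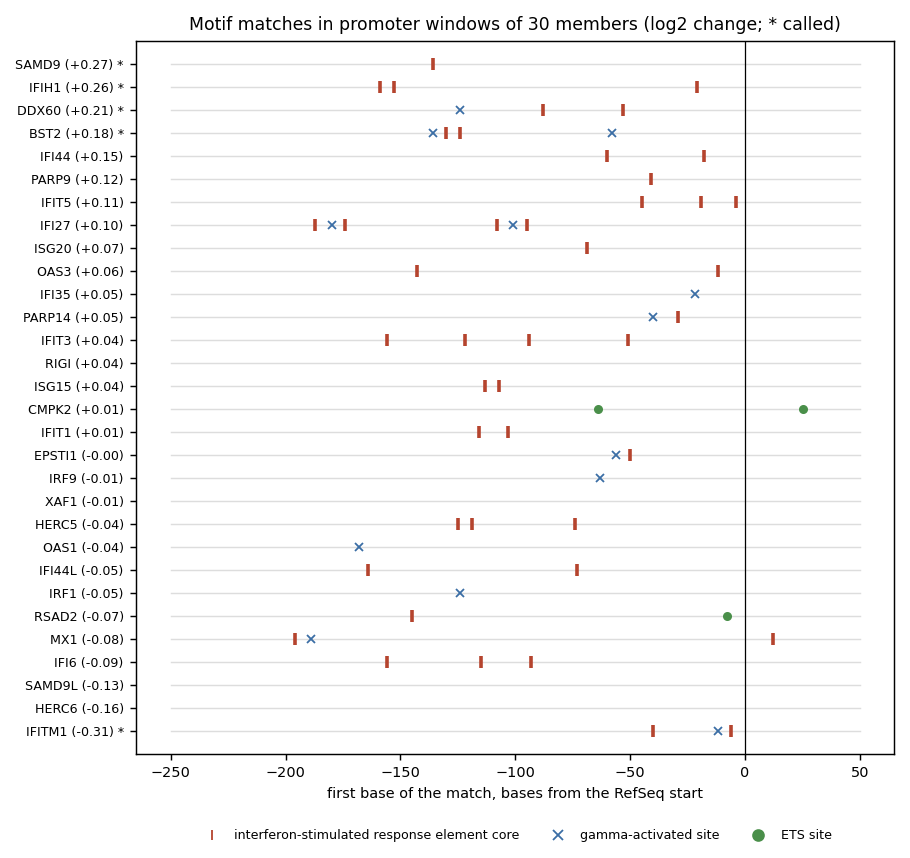
Position of each motif match in the promoter windows of 30 members (x axis, bases from the RefSeq start; the windows of a gene with several starts are overlaid), with members ordered from the highest to the lowest log2 difference, printed beside the name. Red bars are the response element core, blue crosses the gamma-activated site and green dots the ETS site. The 5 called members, marked with an asterisk, all carry at least 1 red bar, as do 16 members not called.

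Of the 3 members grouped as RNA sensors, IFIH1 and DDX60 rose and RIGI did not pass the test. IFIH1 encodes MDA5, which binds long double-stranded RNA and signals through MAVS. It read 9.16, 9.17 and 9.16 after ETS2 siRNA, against 8.82, 8.90 and 8.98 in control cells. The ETS2 siRNA arrays lay within 0.01 of each other and above all 3 control arrays, with a difference of 0.26 (95% interval 0.15 to 0.37, SE 0.0477, adjusted p = 0.0204). The call was lost without control replicate 1 or any one of the ETS2 siRNA arrays, with adjusted p up to 0.0903.

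DDX60, a helicase related to the RNA sensors that has been described as promoting their signalling, read 8.41, 8.41 and 8.37 in ETS2 siRNA cells, against 8.16, 8.25 and 8.15 in control cells. Its groups did not overlap, and it rose by 0.21 (95% interval 0.11 to 0.31, SE 0.0425, adjusted p = 0.0312). With 1 array left out it was called only without control replicate 2 (adjusted p = 0.0234), and its adjusted p reached 0.122. Its paralog DDX60L, not a member, stood at 0.06 (adjusted p = 0.724). RIGI, the sensor of short RNA with a 5′ triphosphate and the closest relative of IFIH1 on the list, read 9.64, 9.50 and 9.60 after ETS2 siRNA and 9.50, 9.60 and 9.52 in control cells. The arrays of the groups overlapped, and the difference of 0.04 had a 95% interval from -0.08 to 0.16 (adjusted p = 0.761). DHX58, a nucleic acid sensing gene outside the member list, stood at -0.09 (adjusted p = 0.524).

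SAMD9, which with its neighbour SAMD9L encodes a large cytoplasmic protein that restricts poxviruses and limits cell growth, had the smallest p of the members. It read 10.59, 10.56 and 10.61 after ETS2 siRNA, against 10.31, 10.34 and 10.29 in control cells. The lowest ETS2 siRNA array stood 0.22 above the highest control array, and the difference was 0.27 (95% interval 0.19 to 0.36, SE 0.0378, adjusted p = 0.00774). It stayed called with any array left out except ETS2 siRNA replicate 3, where its adjusted p was 0.0519. SAMD9L read 6.97, 7.08 and 6.92 in ETS2 siRNA cells and 7.13, 7.19 and 7.04 in control cells. These groups overlapped by the highest ETS2 siRNA array and the lowest control array, and the difference of -0.13 (95% interval -0.26 to 0.00) did not pass the test (adjusted p = 0.275).

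The membrane-associated restriction factors moved in opposite directions. BST2, or tetherin, holds budding virions at the cell surface. It read 9.10, 9.12 and 9.17 after ETS2 siRNA, against 8.91, 8.99 and 8.95 in control cells, with no overlap. Its difference of 0.18 (95% interval 0.09 to 0.27, SE 0.0412) passed narrowly, at an adjusted p of 0.0478, and the call was lost with any 1 of the 6 arrays left out (adjusted p from 0.0518 to 0.178) or with a robust variance (adjusted p = 0.0501).

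IFITM1 encodes a membrane protein that blocks the entry of enveloped viruses. It read 7.70, 7.73 and 7.74 in ETS2 siRNA cells, against 8.13, 7.93 and 8.03 in control cells. All 3 ETS2 siRNA arrays were lower than the control arrays, and it fell by 0.31 (95% interval -0.43 to -0.18, SE 0.0541, adjusted p = 0.0190). With 1 array left out it was called only without control replicate 2 (adjusted p = 0.0130), and its adjusted p reached 0.0798. Its relatives IFITM2 and IFITM3, which restrict virus in endosomes and are not members, stood at 9.90 after ETS2 siRNA and 9.90 in control cells, and at 9.05 after ETS2 siRNA and 9.08 in control cells. Neither passed the test (adjusted p = 1.0 and 0.785).

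**Figure D3:**
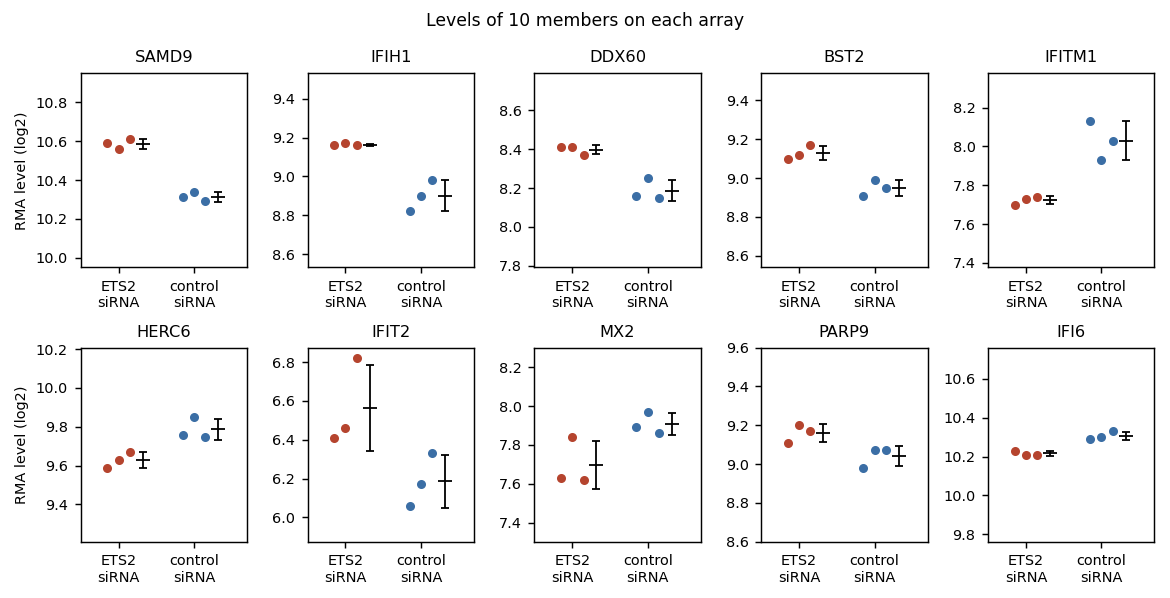
RMA levels on the log2 scale of the 5 called members (top row) and the 5 members with the next smallest p (bottom row), 1 point per array, with ETS2 siRNA in red on the left and control siRNA in blue on the right, and black bars for mean and SD (n = 3). Every panel spans 1 log2 unit, and the arrays of the 2 groups do not overlap for any of the 10.

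Groups that do not overlap were more frequent than calls. They were seen for 10 of 36 members (27.8%), beside 23.1% of all genes: 6 members with ETS2 siRNA higher (16.7%), beside 11.6% of all genes, and 4 with ETS2 siRNA lower (11.1%), beside 11.5%. These 10 are the 5 called members and HERC6, IFIT2, MX2, PARP9 and IFI6.

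HERC6, one of the HERC ubiquitin ligases and the main ISG15 ligase in mice, came closest to a call. It read 9.59, 9.63 and 9.67 after ETS2 siRNA and 9.76, 9.85 and 9.75 in control cells. The difference was -0.16 (95% interval -0.26 to -0.05, adjusted p = 0.0949). HERC5, the ligase that attaches ISG15 in human cells, lay below the floor in both groups, at 5.11 after ETS2 siRNA and 5.14 in control cells. ISG15, the ubiquitin-like modifier itself, stood at 8.35 ± 0.03 after ETS2 siRNA and 8.31 ± 0.04 in control cells (SD, n = 3; adjusted p = 0.712). USP18, the protease that removes ISG15 and damps receptor signalling, had a difference of -0.12 with a 95% interval from -0.23 to 0.00 (adjusted p = 0.272). Of these 4 genes of ISG15 conjugation, 0 were called by limma and 1 had an unadjusted p under 0.05.

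The IFIT proteins bind foreign RNA ends and hold back its translation. IFIT2 read 6.41, 6.46 and 6.82 after ETS2 siRNA and 6.06, 6.17 and 6.33 in control cells. Both group means lay below the floor, and ETS2 siRNA replicate 3 stood 0.36 above the next array of its group. Its difference of 0.38 was the widest of all members and had the widest interval, from 0.12 to 0.63 (adjusted p = 0.108). Without that array it was 0.25. IFIT5 stood at 0.11, IFIT3 at 0.04 and IFIT1 at 0.01, with adjusted p between 0.393 and 0.961. IFIT3 also lay below the floor, and IFIT1, at 6.71 after ETS2 siRNA and 6.70 in control cells, barely above it. All 4 differences were positive, 0 were called by limma, and 1 had an unadjusted p under 0.05.

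The MX proteins are dynamin-like GTPases that trap viral nucleocapsids. MX2, which acts on lentiviruses and herpesviruses, read 7.63, 7.84 and 7.62 after ETS2 siRNA and 7.89, 7.97 and 7.86 in control cells. The highest ETS2 siRNA array lay 0.02 under the lowest control array, and the difference of -0.21 (95% interval -0.36 to -0.06) did not pass the test (adjusted p = 0.124). MX1, best known against influenza virus, lay below the floor and stood at -0.08 (adjusted p = 0.562). The 2 genes are neighbours on chromosome 21, which also carries ETS2.

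The oligoadenylate synthetases make the second messenger that activates RNase L, and none of OAS1, OAS2, OAS3, the related OASL and the exonuclease gene ISG20 was called. Their differences ran from -0.07 (OASL) to 0.07 (ISG20), and 0 of the 5 had an unadjusted p under 0.05, beside 18.5% of all genes. OAS3 read 10.24, 10.28 and 10.25 in ETS2 siRNA cells and 10.18, 10.27 and 10.14 in control cells, and its 95% interval ran from -0.04 to 0.16. OAS1 stood at 8.09 ± 0.04 after ETS2 siRNA and 8.13 ± 0.06 in control cells (SD, n = 3). OAS2 was below the floor in both groups, and OASL lay within 0.1 of it.

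PARP9 and PARP14 belong to the ADP-ribosyltransferase family, and PARP9 pairs with the ubiquitin ligase DTX3L. PARP9 read 9.11, 9.20 and 9.17 after ETS2 siRNA and 8.98, 9.07 and 9.07 in control cells. Its groups did not overlap, and its difference of 0.12 (95% interval 0.02 to 0.22) did not pass the test (adjusted p = 0.193). PARP14 stood at 0.05 and DTX3L, not a member, at 0.02 (adjusted p = 0.603 and 0.861).

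The transcription factors on the list carry the signal to the genome and back. IRF9, the DNA-binding subunit of the complex described above, read 9.49, 9.54 and 9.53 after ETS2 siRNA and 9.51, 9.61 and 9.47 in control cells. IRF7, which amplifies type I interferon production, and IRF1, which maintains basal antiviral expression in epithelium, each stood at -0.05. All 3 intervals lay between -0.15 and 0.10 (adjusted p from 0.582 to 0.949). An unadjusted p under 0.05 was seen for 0 of the 3, beside 18.5% of all genes.

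The remaining members are widely used interferon markers. IFI6, a small membrane protein of mitochondria and endoplasmic reticulum, read 10.23, 10.21 and 10.21 after ETS2 siRNA and 10.29, 10.30 and 10.33 in control cells. The arrays of ETS2 siRNA cells were all lower, but the difference of -0.09 (95% interval -0.17 to -0.01) did not pass the test (adjusted p = 0.230). IFI44 stood at 0.15 (adjusted p = 0.236), its neighbour IFI44L at -0.05, IFI27 at 0.10 and IFI35 at 0.05. The viperin gene RSAD2, whose product makes a chain-terminating nucleotide, was below the floor at -0.07, and the adjacent nucleotide kinase gene CMPK2 stood at 0.01. XAF1, a pro-apoptotic gene, and EPSTI1 were also below the floor, at -0.01 and 0.00.

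Of the 31 members not called, 23 were above the floor in at least 1 group. The 95% interval lay inside ±0.2 for 14 of these 23, inside ±0.3 for 22, MX2 being the exception, and inside ±0.5 for all 23. The other 8 were below the floor in both groups, where a narrow interval sets no bound on the transcript. The median SD between replicates was 0.07 for the members and 0.06 for all genes. Of the 28 members above the floor in at least 1 group, 4 rose (14.3%) and 1 fell (3.57%), beside 3.17% and 3.62% of the 13043 genes above it. The limit set by the choice of the list holds for these shares too.

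Across the arrays, the members as a whole shifted little. The median over 36 members of the deviation from each gene's 6-array mean was 0.00, 0.02 and 0.00 on the ETS2 siRNA arrays and -0.02, 0.04 and -0.01 on the control arrays. The control arrays thus spanned more than the ETS2 siRNA arrays, and control replicate 2 was the highest array of its group, alone or tied, for 20 of 36 members. The same median over all genes lay between 0.00 and 0.01 on every array.

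**Figure D4:**
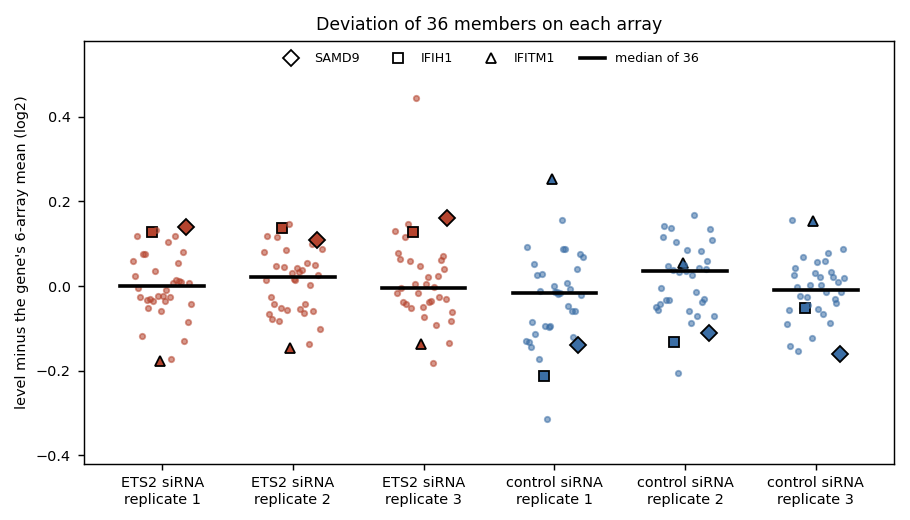
Level of each member minus its mean over 6 arrays (y axis, log2), 1 point per member and array, with a black bar for the median of 36; ETS2 siRNA arrays are red and control arrays blue. The medians stay within 0.04 of 0, while SAMD9 (diamonds) and IFIH1 (squares) are high and IFITM1 (triangles) low on all 3 ETS2 siRNA arrays.

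Near relatives and neighbours were also set side by side. Within-array log2 differences were compared between groups for 10 pairs of related genes by an exact two-sided permutation of 3 arrays against 3, which cannot give a p under 0.1. SAMD9 minus SAMD9L was 3.62, 3.48 and 3.69 after ETS2 siRNA, against 3.18, 3.15 and 3.25 in control cells, a shift of 0.40. IFIH1 minus RIGI shifted by 0.22, IFITM1 minus IFITM2 by -0.31, IFITM1 minus IFITM3 by -0.28 and HERC6 minus HERC5 by -0.12. In these 5 pairs the groups did not overlap (exact p = 0.1, the smallest possible, and 0.2 after adjustment over the 10 pairs). With 3 arrays against 3, no pair could have reached the level used for calls, so the test cannot decide whether any pair shifted. The pairs were chosen with earlier results known. SAMD9, IFIH1 and IFITM1 were called on their own, so the shifts of their pairs are not separate evidence from those calls. HERC5 lay below the floor, so its pair is set against a probe not above background. In the other 5 pairs the groups overlapped. Along the chromosomes, the 36 members lie on 17 chromosomes, and 11 pairs lie next to each other with at most 2 protein-coding genes between them. The differences had the same sign in 6 of these pairs and opposite signs in 5, and in 0 pairs were both genes called.

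Genes that lie upstream of the members were read list by list. Of 13 interferon genes measured, 0 were called by limma and 1 had an unadjusted p under 0.05 (7.69%, beside 18.5% of all genes). This was IFNK (0.13, adjusted p = 0.221), the next smallest p being that of IFNA5 (-0.06, adjusted p = 0.541). These genes are among 10 of the 13 that lay below the floor in both groups, where a reading sets no bound on the transcript. IFNB1, the first type I interferon made by infected epithelium, lay below the floor, at 4.70 after ETS2 siRNA and 4.67 in control cells. Above the floor were IFNL1, IFNL2 and IFNL3, the type III interferons of mucosal surfaces, at 7.11, 7.32 and 8.67 in ETS2 siRNA cells and 7.03, 7.25 and 8.64 in control cells. IFNL2 and IFNL3 are near-identical genes, so their readings may not be separate. All 6 receptor chains (IFNAR1, IFNAR2, IFNGR1, IFNGR2, IFNLR1 and IL10RB) were above the floor. By limma 0 were called and 1 had an unadjusted p under 0.05 (16.7%, beside 18.5% of all genes). This was IL10RB, the shared chain of the interferon lambda and interleukin 10 receptors (0.14, adjusted p = 0.104). IFNAR1 stood at 0.11 and IFNAR2 at -0.13 (adjusted p = 0.377 each).

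Of 16 kinases, STATs and negative regulators, 0 were called by limma and 5 had an unadjusted p under 0.05 (31.25%, beside 18.5% of all genes). SOCS2, a feedback inhibitor of cytokine receptors, read 7.0, 6.99 and 6.93 after ETS2 siRNA and 7.18, 7.26 and 7.10 in control cells (-0.21, adjusted p = 0.0588). TYK2, the kinase bound to IFNAR1, read 8.99, 8.91 and 8.99 after ETS2 siRNA and 9.13, 9.16 and 9.10 in control cells (-0.17, adjusted p = 0.0646). JAK1 stood at -0.05. The median of these 16 genes was -0.04, beside 0.00 for all genes.

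Among 24 other genes of nucleic acid sensing, 1 changed (4.17%), which is no more than the 4.91% of all genes called. IRF5, a transcription factor downstream of Toll-like receptors, read 7.66, 7.59 and 7.49 after ETS2 siRNA, against 7.84, 7.96 and 7.92 in control cells. It fell by 0.33 (95% interval -0.45 to -0.20, SE 0.0550, adjusted p = 0.0160), a call lost without control replicate 3 or ETS2 siRNA replicates 2 or 3 (adjusted p up to 0.0672).

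Of 54 further interferon-inducible genes outside the member list, 3 rose (5.56%) and 2 fell (3.70%), beside the 2.28% and 2.63% of all genes. GBP3, a guanylate-binding protein, read 8.65, 8.81 and 8.70 after ETS2 siRNA, against 8.32, 8.39 and 8.33 in control cells. It rose by 0.37 (SE 0.0505, adjusted p = 0.00737) and stayed called with any array left out. PARP12, a mono-ADP-ribosyltransferase of stress granules and the Golgi, rose by 0.23 (adjusted p = 0.0116), with arrays at 11.45, 11.48 and 11.45 after ETS2 siRNA, against 11.22, 11.23 and 11.23 in control cells. SP110, a nuclear body protein, rose by 0.24 (adjusted p = 0.0482), and with 1 array left out was called only without control replicate 2. It also lost its call on centring on ribosomal protein genes (adjusted p = 0.0504) and with a robust variance (adjusted p = 0.0519). PARP12 lost its call without control replicate 3 or ETS2 siRNA replicates 2 or 3 (adjusted p up to 0.0638).

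The genes that fell, CXCL10 and IDO1, both lay below the floor in each group. CXCL10, a chemokine for T cells, read 5.26, 5.22 and 5.26 after ETS2 siRNA, against 5.73, 6.39 and 6.01 in control cells, a difference of -0.80 (95% interval -1.12 to -0.48, adjusted p = 0.0180). The control arrays were spread over 0.66, while the ETS2 siRNA arrays lay within 0.04. IDO1, the tryptophan-degrading enzyme, stood at -0.32 (adjusted p = 0.0159). With 1 array left out, CXCL10 stayed called without control replicate 1 or 2, and IDO1 without control replicate 2 or 3 or ETS2 siRNA replicate 1. CXCL10, IDO1, IRF5 and SP110 lost their calls when all probes were tested on their own (adjusted p from 0.0614 to 0.129).

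**Figure D5:**
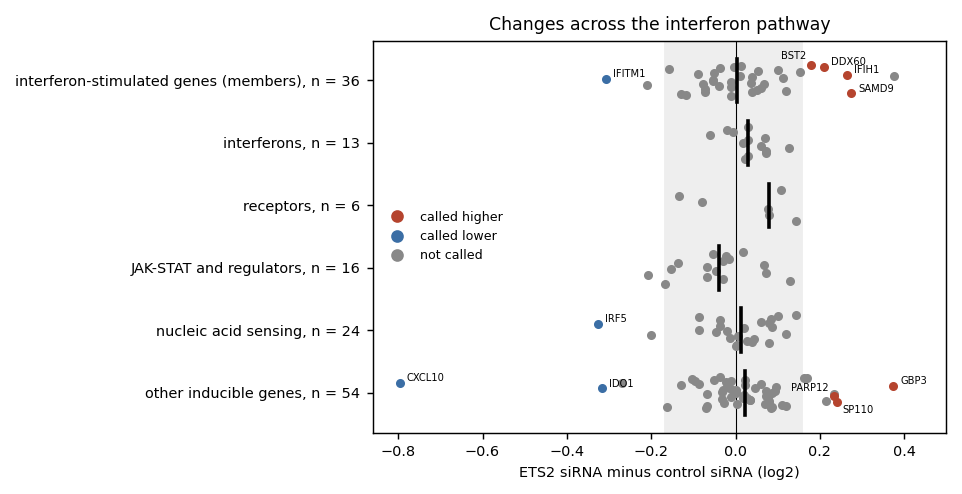
Log2 difference of every measured gene of the members and of 5 interferon pathway lists between ETS2 siRNA and control cells (x axis, positive where ETS2 siRNA was higher), 1 point per gene with a black bar at the list's median; called genes are named. The grey band holds the middle of all 18417 genes, from the 5th to the 95th percentile (-0.17 to 0.16), and most points of each list fall inside it.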

How the data were processed

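Total RNA of 6 H441 cultures, 3 with ETS2 siRNA and 3 with control siRNA, was labelled with biotin and hybridised to Affymetrix human gene arrays. The deposited values are log2 expression levels per probe and array, made with RMA per the submitters' processing notes; no source used here gives its settings, version or genome build. Because RMA equalises the arrays, it would hide a change common to every gene, and it understates folds at low signal. Precision is limited by the number of arrays, and p-values measure the spread between these transfections.

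Of 33297 probes, 19460 carried exactly 1 gene symbol in the platform annotation, and 19429 of these matched a RefSeq gene (GRCh38.p14, used for names and neighbours). The probe with the highest mean over 6 arrays stood for a gene. Differences were fitted with limma 3.58.1 in R 4.3.3 (lmFit and eBayes, no trend, no filter on dim genes) over all 18417 genes, two-sided, and the procedure was tested on simulated data. Promoter sequences are RefSeq's, in build GRCh38.p14. Members, pathway lists, gene pairs and the rule for named genes were chosen with earlier results of these data known. That rule names all members, with array values for those called and the 5 with the next smallest adjusted p, and in the pathway lists the called genes or else the 2 with the smallest p. Array values of RIGI, SAMD9L, OAS3 and IRF9, and genes such as IFNB1, the lambda interferons, JAK1 and relatives of members, were added after their values were seen. Also tried were a block for the replicate number, 3 rescalings, 2 filters on dim genes, 2 treatments of probes, 2 variance models, array weights and each array left out.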

Additional observations from a re-analysis of the deposited data

Results flagged for a closer look

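A probe outside the gene-level test, because it carries 3 symbols (GBP1P1, GBP3 and GBP1), gave a signal above the control cells. It read 8.46, 8.45 and 8.40 after ETS2 siRNA and 8.06, 8.0 and 8.03 in control cells, a log2 difference of 0.41 (95% interval 0.31 to 0.50). By limma over all 33297 probes its adjusted p was 0.0121. GBP3 has a probe of its own, at 0.37, and which of the 3 genes the shared probe reads was not tested.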

How the results depend on the processing

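ETS2 stayed called under every alternative, and SAMD9 under all 11 that kept the 6 arrays (adjusted p from 6.01e-05 to 0.0364). With 4 members called higher and 1 lower as reported, testing all 33297 probes on their own gave 1 higher (SAMD9) and 0 lower by limma. A filter on the mean of all arrays gave 4 and 2, and an intensity trend 5 and 2, HERC6 being the added fall in both and IFIT2 the added rise under the trend; the cause was not tested. With 1 array left out, between 0 and 3 members were called higher and between 0 and 1 lower. Centring on the median, a second quantile normalisation and centring on 67 ribosomal protein genes each kept 4 higher and 1 lower. The count over all genes, 904 as reported, lay between 213 without ETS2 siRNA replicate 3 and 1963 with the trend, and the filters on dim genes gave 1397 and 1408. The split of 420 higher and 484 lower became 475 and 442 on median centring. The median difference of the members stayed between 0.00 and 0.03 (0.03 with either filter on dim genes, 0.02 without ETS2 siRNA replicate 3). With the replicate number as a block, 3 members rose (IFIH1, IFIT2 and SAMD9) and 1 fell (IFITM1), DDX60 and BST2 lost their calls (adjusted p = 0.0555 and 0.0771), and 604 genes were called. Same-numbered arrays deviated together with correlations of 0.18, 0.18 and 0.04 over genes, the third under 0.1, and the main fit did not take the numbers as pairs. The correlations for numbers 1 and 2 were the highest of all combinations. Whether arrays of the same number shared conditions was not tested. Control replicate 3 correlated best with ETS2 siRNA replicate 1 (0.07).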

Other observations

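Of 9 probes with several symbols that include an interferon pathway gene, 1 was called, the guanylate-binding protein probe given above. The 2 probes shared by LGALS9, LGALS9B and LGALS9C, which encode or resemble the interferon-inducible lectin galectin-9, read 0.30 and 0.28 on the log2 scale, with adjusted p of 0.139 and 0.227 by limma over all probes. The first gave 7.80, 7.57 and 7.52 after ETS2 siRNA and 7.32, 7.35 and 7.31 in control cells, so ETS2 siRNA replicate 1 stood apart from the other two. A probe shared by USP18 and its pseudogene USP41P read -0.08, beside -0.12 for the probe of USP18 alone.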
